A study of Mus musculus with 8 samples.

Results

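Semaphorins and their receptors were followed in fetal blood stem cells through 10 genes: the secreted semaphorin Sema3d, the membrane semaphorins Sema4a, Sema4b and Sema4d, the neuropilins Nrp1 and Nrp2, and the plexins Plxna1, Plxnb2, Plxnc1 and Plxnd1. Every probe set whose annotation gave 1 gene symbol from this set was taken, which yielded 27 of the 45037 probe sets on the array other than controls, and no probe set listed a member together with another gene. Sema3d entered because of its difference between Crebbp+/- and wild type in these same arrays, so the genotype values of the members are given as a description, without a test.

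Semaphorins are ligands that share an extracellular sema domain. Class 3 semaphorins are secreted and mostly act through a complex in which a neuropilin binds the ligand and a plexin carries the signal into the cell, whereas class 4 semaphorins are membrane proteins that bind plexins directly. Plexins regulate small GTPases and through them adhesion, cell shape and migration. Neuropilins also bind vascular endothelial growth factors, and several of these genes are best known from axons, vessels and immune cells.

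The cells were Crebbp+/- and wild-type haematopoietic stem cells from fetal liver of mice on a C57BL/6 background, sorted as c-Kit++, AA4.1+, Lin- and Sca-1+. CBP, the product of Crebbp, is a coactivator of transcription with histone acetyltransferase activity. Which Crebbp allele the embryos carried is not given in the sources used here. Embryos were 14.5 days post coitum by one label and 14 by another, and each preparation pooled 15 of them. Each genotype had 2 numbered samples, each measured on 2 arrays from 12 ng of total RNA amplified before labelling, and nothing in the labels says that the samples came from separate litters, so the spread between them may be technical. The 2 arrays of a sample were averaged, which left n = 2 samples per genotype.

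Values are log2 signals that the GCRMA method had corrected for background and normalized. A background level of 2.72 was taken as the median of all probe-set means, and distances from it are given in log2 units. Probe sets differ in how well they bind their target, so a level is compared between samples and with the background, not with that of another probe set. The probe sets with a mean above 2.72, 22518 in all, were tested with limma, and none passed at an adjusted p of 0.05 between genotypes (lowest adjusted p = 0.991, with 1089, or 4.84%, at an unadjusted p under 0.05). The smallest two-sided p of an exact permutation test is 0.33 at this sample size. Of 12 stem and progenitor markers, 10 had a probe set with 1 symbol, and 9 of these lay more than 1 log2 unit above background in all 4 samples, among them Kit and Cd93, which encodes the AA4.1 antigen. Ly6a, which encodes Sca-1, had no probe set with 1 symbol. The stem and progenitor list mean was 9.45 and 9.46 in the Crebbp+/- samples, against 9.68 and 9.52 in the wild-type samples. Of the 10 markers 5 were higher in Crebbp+/-. Gata2, Kit, Slamf1, Cd34 and Cd93 differed by 0.20, 0.12, 0.12, 0.07 and 0.004, each by less than its SE. Of the lower ones, Tal1 and Flt3 differed by -0.12 (SE 0.24) and -0.11 (SE 0.26). Procr, Hlf and Mecom differed by -0.81 (SE 0.40), -0.54 (SE 0.20) and -0.38 (SE 0.14). For these genes every Crebbp+/- array lay below every wild-type array, as for 3.74% of all probe sets tested. Of 9 lymphoid markers 6 lay at background in all samples, meaning less than 0.5 above it, among them Cd3e and Pax5, while Cd79b, Il7r and Rag1 did not. The lymphoid list mean was 3.68 and 3.77 in the Crebbp+/- samples, against 3.53 and 3.61 in the wild-type samples. Rag1, Il7r and Cd79b differed by 0.87 (SE 0.29), 0.70 (SE 0.55) and -0.05 (SE 0.23). Rag1 read 3.81 and 3.80 in the Crebbp+/- samples, against 3.27 and 2.59 in the wild-type samples. Of 7 erythroid markers 5, among them Alas2, lay at background in all samples and Tfrc and Slc4a1 did not. The erythroid list mean was 3.68 and 3.66 in the Crebbp+/- samples, against 3.53 and 3.55 in the wild-type samples. Slc4a1 read 2.93 and 3.45 in the Crebbp+/- samples, against 2.46 and 2.52, below background, in the wild-type samples. Its difference was 0.70 (SE 0.24), and that of Tfrc was 0.17 (SE 0.20). For Rag1 and Slc4a1 every Crebbp+/- array lay above every wild-type array, as for 3.24% of all probe sets tested. The Crebbp probe sets differed between genotypes by 0.07, 0.01, -0.42 and -0.35 on the log2 scale, and a probe set outside the mutated part would not check the genotype.

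The Sema3d promoter is shown because Sema3d had the largest difference among the members and CBP is recruited by the transcription factor CREB. The bases given are the 250 before the RefSeq start site of Sema3d at chr5:12382916-12383165 on the plus strand of GRCm38.p6. Capitals mark CGTCA, the reverse complement of the short CREB site TGACG, whose first base lies at -84 from the start site.
Sema3d promoter: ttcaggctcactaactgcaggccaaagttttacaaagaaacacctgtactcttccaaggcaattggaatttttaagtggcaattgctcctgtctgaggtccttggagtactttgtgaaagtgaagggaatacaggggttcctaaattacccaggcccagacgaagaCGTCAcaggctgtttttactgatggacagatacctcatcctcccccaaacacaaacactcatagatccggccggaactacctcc

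Motifs were searched on both strands in windows of 300 bases, 250 before and 50 after each start. The short site TGACG occurred in 20.9% of 32544 RefSeq promoters, so a match is common, and among 16 promoters of 9 member genes it was found at Sema3d alone. The full CREB site TGACGTCA, which contains the short one, occurred in 1.80% of all promoters and in none of the members' windows. The GATA motif AGATAA, found in 11.2% of promoters, was in none of them, and the RUNX motif TGTGGT, found in 16.7%, was in 1 of the 3 Sema4d windows. A match is a string of letters and not evidence of binding. Plxna1 had no promoter in the table used.

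Sema3d had higher signals in Crebbp+/- cells than in wild-type cells on every array. Sema3d is a class 3 semaphorin that guides endothelial cells during formation of the pulmonary veins in mice. Its responsive probe set, 1429459_at, read 7.06 and 6.79 in Crebbp+/- sample 1 and 5.81 and 6.45 in Crebbp+/- sample 2, against 4.65 and 4.47 in wild-type sample 1 and 3.06 and 3.71 in wild-type sample 2. The lowest Crebbp+/- array stood 1.17 above the highest wild-type array, so the groups did not overlap. Mean log2 signals were 6.53 ± 0.56 in Crebbp+/- and 3.97 ± 0.83 in wild type (SD, n = 2 each), a log2 difference of 2.56 (SE 0.53), or 5.88-fold. Among the 22518 probe sets above the filter no other had a positive difference as large. Both Crebbp+/- samples lay above both wild-type samples in 15.6% of them, all 4 Crebbp+/- arrays above all 4 wild-type arrays in 3.24%, and an absolute difference of at least 1 was seen in 3.20% of them. Because Sema3d was chosen from this contrast, its size is a description and carries no test.

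The distance of Sema3d from background differed with genotype. Its signal averaged 3.80 above background in Crebbp+/- and 1.25 above it in wild type, and the lowest wild-type array was only 0.34 above, so the fold change is less certain than the order of the groups. Between arrays of the same sample the readings differed by at most 0.65. The second Sema3d probe set, 1453148_at, for which the annotation lists the same sequence record, read between 2.31 and 2.40 on all 8 arrays, below background, and showed a difference of 0.02 between genotypes. The higher signal in Crebbp+/- therefore rests on 1 probe set. In a bulk preparation, more cells that express a gene and more transcript per cell cannot be told apart.

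**Figure D1:**
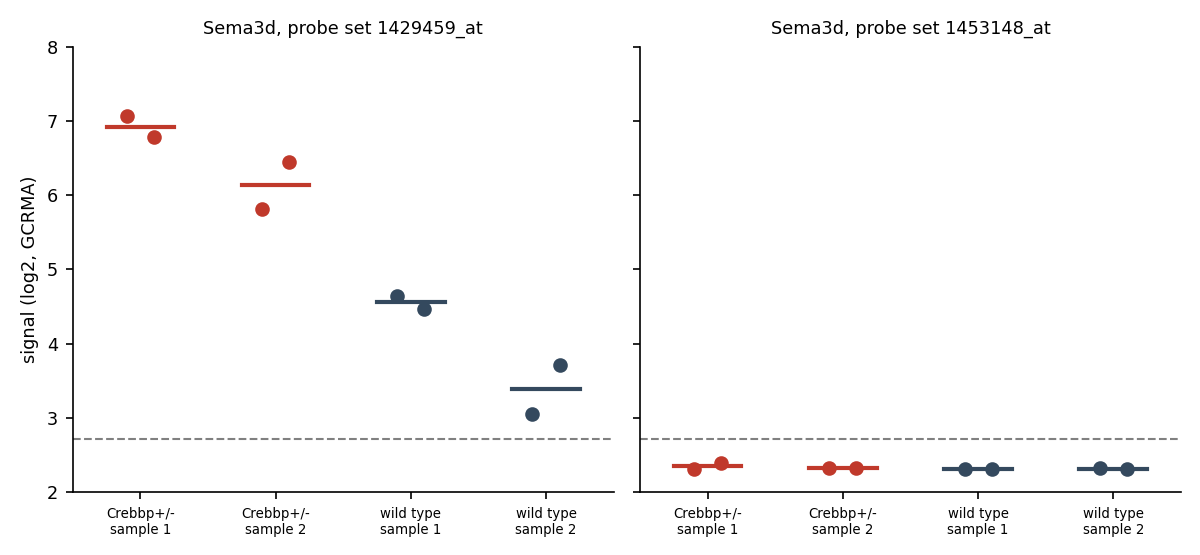
Log2 GCRMA signal (vertical axis) of both Sema3d probe sets in the 4 samples (horizontal axis). Points are arrays, bars are sample means and the dashed line is the background level of 2.72. Signals of 1429459_at lie between 5.81 and 7.06 in Crebbp+/- (red) and between 3.06 and 4.65 in wild type (dark blue), and 1453148_at lies below background throughout.

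Sema3d also differed between the numbered samples of each genotype. Within the samples numbered 1 Crebbp+/- exceeded wild type by 2.37, and within those numbered 2 by 2.74. Sample 2 was lower than sample 1 by log2 differences of -0.79 in Crebbp+/- and -1.17 in wild type. Averaged over genotypes, sample number 2 stood at 4.76 and sample number 1 at 5.74, a difference of -0.98 (SE 1.18) that did not pass (limma adjusted p = 0.685). The SE of this comparison contains the difference between genotypes.

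Other measures moved with the samples too. The Gapdh 5′ minus 3′ signal, a control that becomes more negative in degraded RNA, was -0.89 and -1.88 in Crebbp+/- samples 1 and 2 and -1.22 and -2.59 in wild-type samples 1 and 2. Because fetal liver holds other cells, markers of those were also read. Over 8 hepatocyte markers the mean log2 signal was 4.68 and 4.94 in Crebbp+/- samples 1 and 2, against 2.84 and 5.45 in wild-type samples 1 and 2. The means of 5 of the 8 were above background in both genotypes, but only 1 lay more than 1 log2 unit above it in all 4 samples. Alb and Ttr were below background in wild-type sample 1, at 2.43 and 2.32. Ahsg, Apob and Fgb were at background. Wild-type samples 1 and 2 had the lowest and the highest liver signal. Over 11 endothelial markers the mean ranged from 4.53 to 4.61 in Crebbp+/- and from 4.68 to 4.79 in wild type. Cdh5, Cldn5, Kdr, Lyve1 and Stab2 were at background in all samples, and the other 6 were above it. Of these 6, Tie1, Esam and Pecam1 differed by -0.73 (SE 0.32), -0.62 (SE 0.27) and -0.49 (SE 0.34). Both Crebbp+/- samples lay below both wild-type samples for each, and samples separated in either direction for 31.0% of all probe sets tested. Emcn, Tek and Plvap differed by -0.03, 0.06 and 0.17. Of 10 mesenchymal and stellate cell markers 8, including Col1a1, Dcn and Des, were at background in all samples, and the list mean ranged from 2.74 to 2.94 in Crebbp+/- and from 2.70 to 2.85 in wild type. Pdgfrb was above it, at 6.14 and 7.02 in the Crebbp+/- samples and 5.55 and 7.08 in the wild-type samples. Col1a2 read 5.03 on array 1 of Crebbp+/- sample 2 and was below background on the other arrays. Mast cell markers averaged 2.69 to 2.74 in Crebbp+/- and 2.38 to 2.44 in wild type, with 7 of 9 at background. Cpa3, the mast cell carboxypeptidase gene, read 5.27 and 5.44 in the Crebbp+/- samples, against 2.92 and 3.45 in the wild-type samples. Hdc read 4.13 on array 1 of Crebbp+/- sample 1 and was below background on the other arrays. Of 9 macrophage markers 6 were at background, with list means of 3.50 to 3.90 in Crebbp+/- and 3.60 to 3.88 in wild type. Csf1r, Cd68 and C1qb were not. Csf1r read 9.31 and 10.90 in the Crebbp+/- samples and 9.81 and 10.76 in the wild-type samples. Cd68 read 5.41 and 5.89 in Crebbp+/- and 6.01 and 5.87 in wild type. C1qb read 5.26 in Crebbp+/- and 4.45 in wild type on array 2 of sample 2, and did not exceed 2.84 on the other arrays. The part of RNA quality and of stem cell, liver, endothelial, mesenchymal, mast cell, macrophage, lymphoid and erythroid transcripts in the Sema3d values was not tested.

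Among 19053 other probe sets with 1 symbol and a mean above the filter, the pattern most like that of Sema3d over the 8 arrays, by Euclidean distance between mean-centred log2 values, belonged to Gpt2, a mitochondrial alanine transaminase, at a distance of 1.54. It was followed by Aldh5a1, Ctse, Smtnl2, Tmeff1 and Ltn1, up to a distance of 1.81, where a flat profile lies 3.94 from Sema3d. These 6 probe sets differed between genotypes by 1.42 to 2.04 and between sample numbers 2 and 1 by -1.65 to -0.90 on the log2 scale. They were picked for their likeness to Sema3d, so the direction of both differences follows from that choice and is not a separate result. The 8 arrays come from 4 samples, so likeness over them reflects few independent points.

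On chromosome 5, Sema3d lies in a stretch with other class 3 semaphorins. Of its 5 nearest genes on each side that had a probe set, 7 of 10 were at background, among them Sema3a and Sema3e. The next gene on one side, Gm4047, whose probe set can bind several transcripts, read 5.49 and 4.77 in the Crebbp+/- samples, against 4.87 and 4.15 in the wild-type samples, a log2 difference of 0.62 (SE 0.42). Tmem243 read 5.01 and 5.49 in Crebbp+/- and 4.17 and 4.60 in wild type, a difference of 0.86 (SE 0.33), and Dmtf1 differed by -0.21 (SE 0.26). None of the 3 passed the limma test.

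The class 4 semaphorins Sema4d and Sema4b were far above background in both genotypes. Sema4d, also known as CD100, is a ligand of plexin B receptors and, on lymphoid cells, of CD72. Its probe set 1420824_at read 11.66 and 11.64 in Crebbp+/- sample 1 and 11.35 and 11.29 in sample 2, against 11.48 and 11.71 in wild-type sample 1 and 10.83 and 11.16 in sample 2. The genotypes overlapped, with means of 11.49 ± 0.23 in Crebbp+/- and 11.29 ± 0.42 in wild type (SD, n = 2 each) and a difference of 0.19 (SE 0.26). The difference was 0.06 between the samples numbered 1 and 0.33 between those numbered 2. Its other 2 probe sets, 1434596_at and 1420823_at, were below background on every array.

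Sema4b, a transmembrane semaphorin, showed a small difference without overlap. Its probe set 1455678_at read 10.15 and 10.29 in each Crebbp+/- sample, against 10.40 and 10.30 in wild-type sample 1 and 10.36 and 10.47 in wild-type sample 2. Every Crebbp+/- array thus lay below every wild-type array, although the nearest arrays were only 0.01 apart. Mean signals were 10.22 ± 0.002 in Crebbp+/- and 10.38 ± 0.04 in wild type (SD, n = 2 each), a difference of -0.16 (SE 0.16), and the samples numbered 1 and 2 gave -0.13 and -0.19. The second probe set, 1427586_at, was below background.

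Sema4a, whose protein binds plexins of the B and D families and TIM-2 on immune cells, was close to background. Probe set 1438934_x_at, of a type that can bind transcripts of more than 1 gene, ranged from 2.73 to 3.43 in Crebbp+/- and from 2.76 to 4.31 in wild type. In both genotypes the highest reading came from array 2 of sample 2, and the other arrays read 2.73 to 2.84 in Crebbp+/- and 2.76 to 2.85 in wild type. Its difference was -0.22 (SE 0.33). The other probe set, 1448110_at, was below background on every array.

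The neuropilins differed in detection. Nrp1, the co-receptor of class 3 semaphorins and of VEGF-A, was above background at 3 of 4 probe sets. Probe set 1448944_at read 6.51 and 6.03 in Crebbp+/- sample 1 and 6.50 and 7.09 in sample 2, against 6.41 and 5.38 in wild-type sample 1 and 6.19 and 7.00 in sample 2. At this probe set the genotypes overlapped almost fully, with a difference of 0.29 (SE 0.39), at 0.38 in the samples numbered 1 and 0.20 in those numbered 2. The next, 1448943_at, read 4.10 and 4.91 in Crebbp+/- sample 1 and 5.38 and 5.01 in sample 2, against 4.72 and 4.94 in wild-type sample 1 and 5.57 and 4.92 in sample 2, a difference of -0.19 (SE 0.37), at -0.32 in the samples numbered 1 and -0.05 in those numbered 2. The 2 brighter probe sets of Nrp1 thus differed in opposite directions by less than their SE. The third, 1418084_at, was near background on 6 of 8 arrays and higher on array 2 of sample 2 in both genotypes, at 3.35 in Crebbp+/- and 4.53 in wild type. Its difference was -0.35 (SE 0.38), and the fourth probe set, 1457198_at, did not exceed 2.27.

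Nrp2, the co-receptor of Sema3f and VEGF-C, had 4 probe sets and none passed the filter. Probe set 1435349_at ranged from 2.33 to 2.60 in Crebbp+/- and from 2.35 to 2.88 in wild type, and the others did not reach the background level on any array. No genotype comparison can be made for it.

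**Figure D2:**
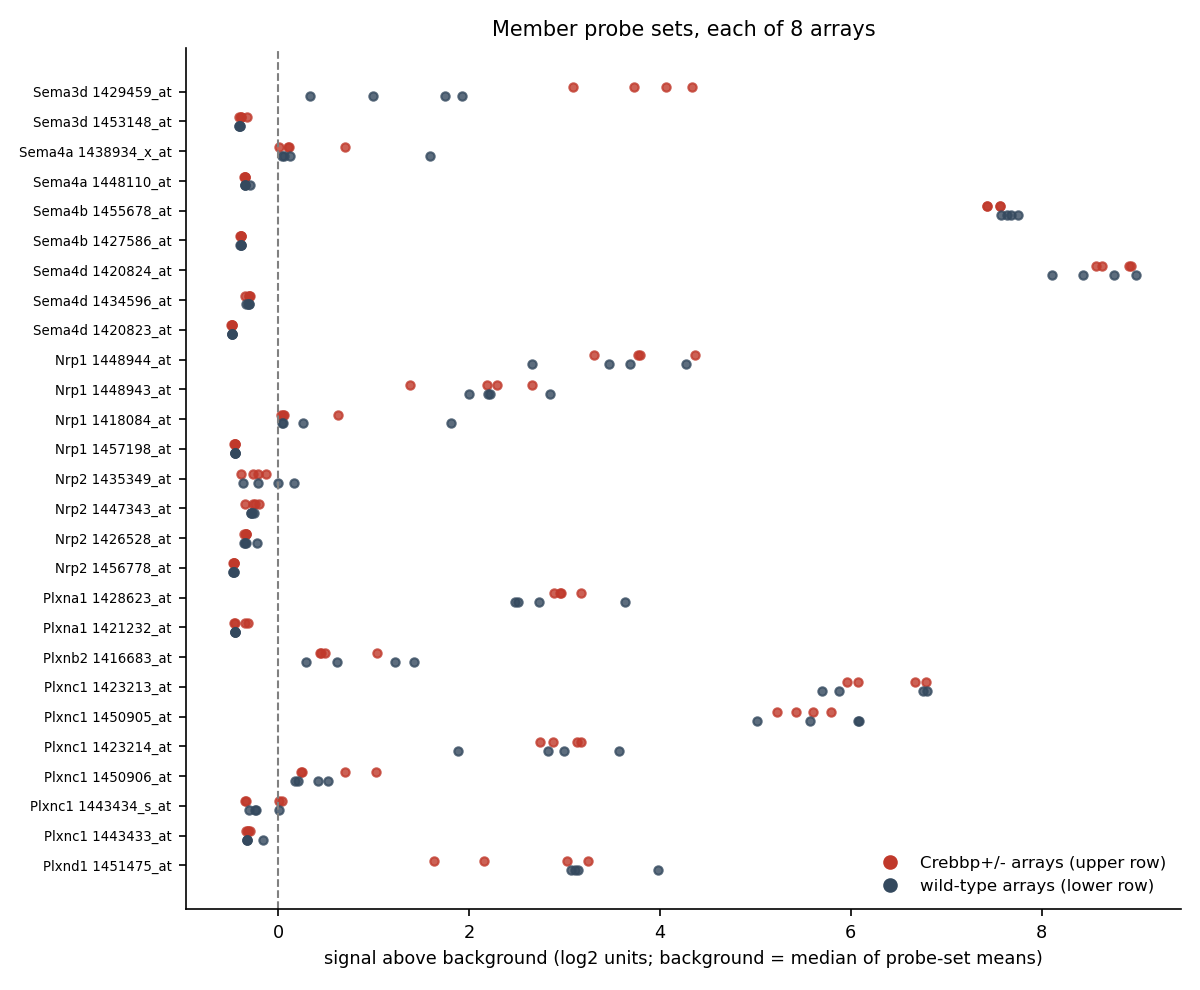
Distance of each member probe set from the background level in log2 units (horizontal axis), with a point for each of the 8 arrays. Crebbp+/- arrays (red) are drawn above wild-type arrays (dark blue) in each row, and the dashed line is the background. Probe sets for Sema4b, Sema4d and Plxnc1 lie farthest to the right, and all 4 Nrp2 probe sets lie at or near the line.

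Of the plexins, Plxnd1 had the largest difference after Sema3d among the probe sets above the filter. Plexin D1 is a receptor of Sema3e required for vessel patterning, and it can also pair with neuropilins. Its probe set 1451475_at read 4.36 and 4.88 in Crebbp+/- sample 1 and 5.97 and 5.75 in sample 2, against 5.79 and 5.86 in wild-type sample 1 and 6.70 and 5.83 in sample 2. Both arrays of Crebbp+/- sample 1 lay below all others, while Crebbp+/- sample 2 overlapped wild type. Means were 5.24 ± 0.88 in Crebbp+/- and 6.05 ± 0.31 in wild type (SD, n = 2 each), a difference of -0.81 (SE 0.50). Within the samples numbered 1 the difference was -1.21, and within those numbered 2 it was -0.41. Without Crebbp+/- sample 1 the difference was -0.19, so 1 sample decides its size.

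Plxna1 encodes a plexin that joins neuropilins to transmit class 3 signals and also binds class 6 semaphorins. Probe set 1428623_at read 5.68 and 5.89 in Crebbp+/- sample 1 and 5.67 and 5.62 in sample 2, against 5.21 and 5.24 in wild-type sample 1 and 5.45 and 6.36 in sample 2. The Crebbp+/- readings fell inside the wild-type range, with a difference of 0.15 (SE 0.35) that was 0.57 between the samples numbered 1 and -0.26 between the samples numbered 2. Its second probe set, 1421232_at, was below background.

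Plxnb2, a receptor of class 4 semaphorins, was weakly detected at its only probe set. The range was 3.16 to 3.75 in Crebbp+/- and 3.02 to 4.14 in wild type, with a difference of -0.29 (SE 0.35). Within the samples numbered 1 the difference was 0.01, and within those numbered 2 it was -0.59.

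Plxnc1, the receptor of Sema7a, was well above background at 3 probe sets, and none separated the genotypes. Probe set 1423213_at read 9.51 and 9.40 in Crebbp+/- sample 1 and 8.80 and 8.68 in sample 2, against 9.48 and 9.52 in wild-type sample 1 and 8.60 and 8.42 in sample 2. In Crebbp+/- 1450905_at read 8.15 and 7.95 in sample 1 and 8.52 and 8.32 in sample 2, against 7.74 and 8.29 in wild-type sample 1 and 8.81 and 8.79 in sample 2. Differences between genotypes were 0.09 (SE 0.44) for 1423213_at and -0.18 (SE 0.35) for 1450905_at. The samples numbered 1 gave -0.04 for 1423213_at and 0.03 for 1450905_at, and those numbered 2 gave 0.23 and -0.38. The third, 1423214_at, read 5.46 and 5.89 in Crebbp+/- sample 1 and 5.85 and 5.61 in sample 2, against 6.29 and 5.71 in wild-type sample 1 and 5.55 and 4.61 in sample 2. Its difference of 0.16 (SE 0.40) was -0.33 in the samples numbered 1 and 0.65 in those numbered 2. Near background, 1450906_at ranged from 2.96 to 3.74 in Crebbp+/- and from 2.90 to 3.24 in wild type, a difference of 0.22 (SE 0.29). The remaining 2 did not exceed 2.76 on any array. Both Sema7a probe sets were at background, with no array above 2.76.

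The same 2 probe sets of Plxnc1 went in opposite directions with the sample number. For 1423213_at both samples numbered 2 lay below both numbered 1, and for 1450905_at both lay above. Samples separated by number in either direction for 53.0% of all probe sets tested. Sample number 2 minus 1 gave -0.85 (SE 0.16, limma adjusted p = 0.178) for 1423213_at and 0.58 (SE 0.20, limma adjusted p = 0.240) for 1450905_at. With genotype as a covariate 1423213_at passed (limma adjusted p = 0.025), as it did in 2 other fits named in the closing section. A gene with opposing probe sets gives no single direction for its transcript, and the Gapdh 5′ minus 3′ signal given above was lower in sample 2 of both genotypes. Its part in these values was not tested.

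**Figure D3:**
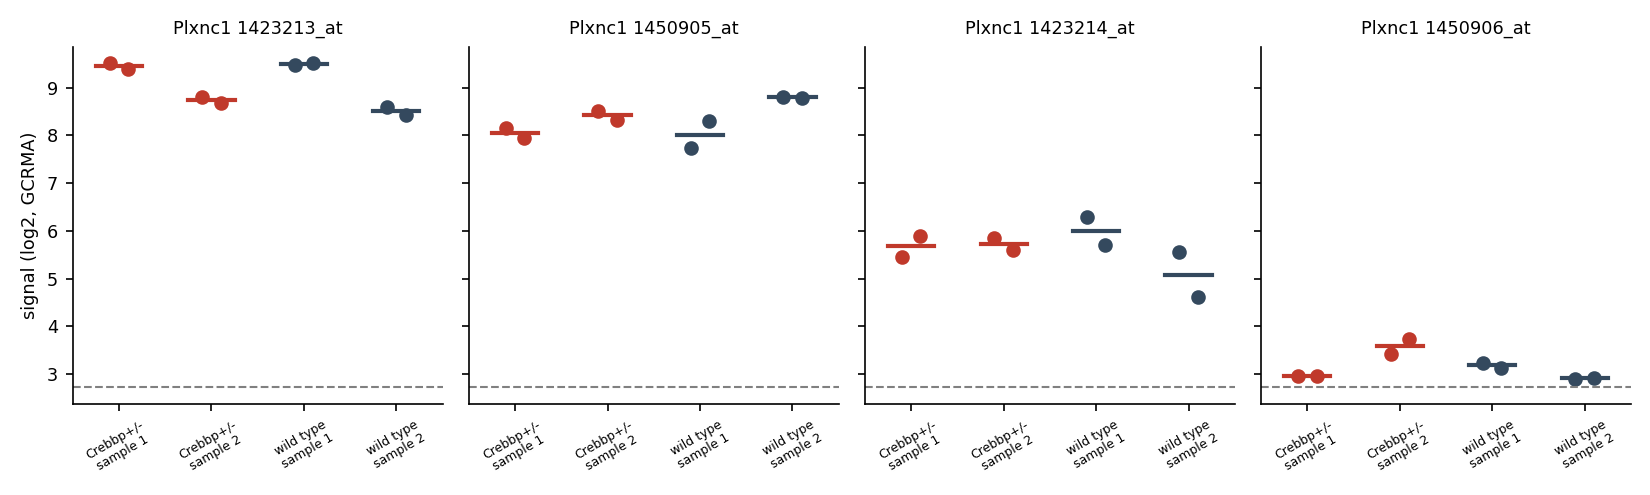
Log2 GCRMA signal (vertical axis) of the 4 Plxnc1 probe sets above the filter in the 4 samples (horizontal axis). Points are arrays, bars are sample means, Crebbp+/- is red, wild type is dark blue and the dashed line is the background. Sample 2 of each genotype lies below sample 1 for 1423213_at and above it for 1450905_at.

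Across the family, 14 of 27 member probe sets, covering 9 of 10 genes, passed the filter. Of these 14, 7 were higher and 7 lower in Crebbp+/-, with a median difference of -0.03, beside 0.02 over all 22518 probe sets, where 53.0% were higher. Sema3d was the only one to differ by at least 1 log2 unit, and 12 of the other 13 differed by less than 0.5. Samples of Crebbp+/- and wild type did not overlap for 2 of the 14, Sema3d and Sema4b, beside 31.0% of all probe sets. For the same 2 the single arrays did not overlap either, beside 6.98% of all, of which 3.24% were higher and 3.74% lower in Crebbp+/-. Differences had the same sign within both sample numbers for 7 of 14, beside 62.4% of all. No limma call was made for any probe set of the array between genotypes (0.00%), and the members' values are read only as a description.

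**Figure D4:**
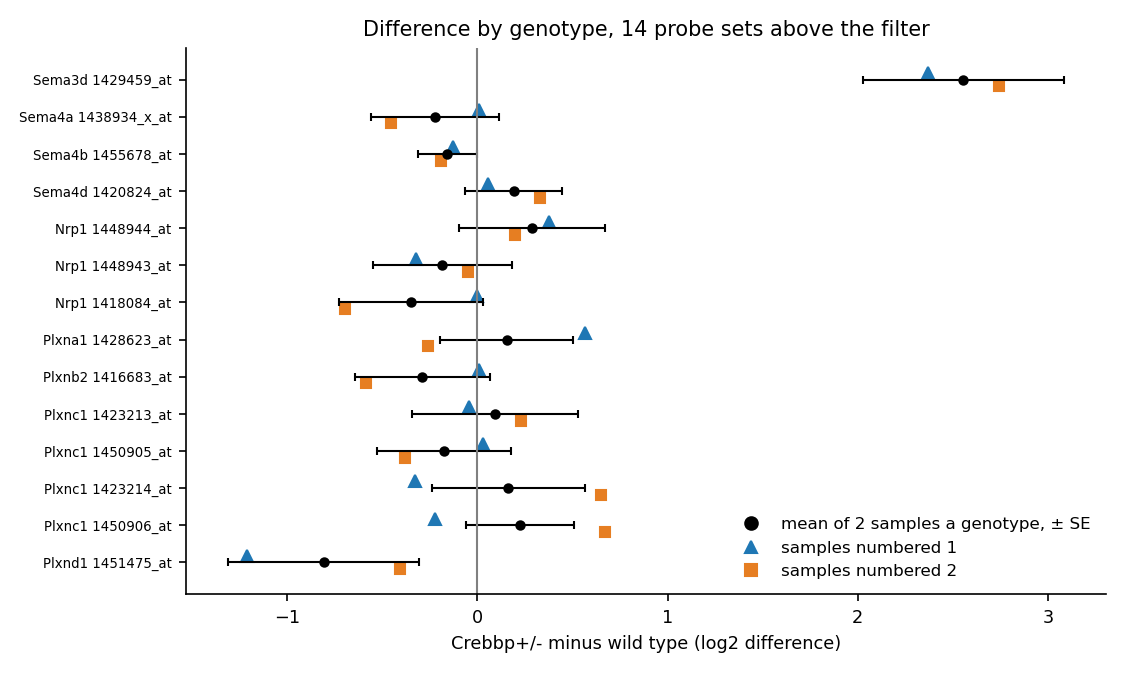
Log2 difference of Crebbp+/- minus wild type (horizontal axis) for the 14 member probe sets above the filter. Black points are differences of the means of 2 samples per genotype with the limma SE, blue triangles compare the samples numbered 1 and orange squares the samples numbered 2. Sema3d lies at 2.56 and the other 13 between -0.81 and 0.29.

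The contrast of sample numbers was not used to choose the members and was tested for them. No member probe set passed, and none passed over the whole array (0.00%). At an unadjusted limma p under 0.05 stood 3 of 14, both Plxnc1 probe sets named above and Sema4d at -0.46 (SE 0.13, limma adjusted p = 0.200), beside 18.7% of all probe sets. Sample number 2 was higher for 10 and lower for 4 of the 14, beside 11275 higher of all 22518. Probe sets of the same gene, as for Nrp1 and Plxnc1, are not independent in this count. Both samples numbered 2 lay on the same side of both numbered 1 for 9 of 14, beside 53.0% of all.

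Set within all 31 semaphorin, plexin and neuropilin genes considered, Sema3d was the only class 3 semaphorin detected. The other 6 class 3 genes had 16 probe sets, none of which passed the filter and none of which exceeded 2.79 on any array, so the class 3 ligands Sema3a, Sema3b, Sema3c, Sema3e, Sema3f and Sema3g lay at background in both genotypes. Of the 78 probe sets of the family, 21 from 15 genes passed the filter. In 8 genes a probe set lay at least 1 log2 unit above background on every array, namely Nrp1, Plxna1, Plxnc1, Plxnd1, Sema4b, Sema4c, Sema4d and Sema6b. Sema3d was not among these because of its low wild-type readings.

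Ligands and receptors outside the members showed no limma call. Of 16 other semaphorins only 4 passed the filter, with a median difference of -0.23, and 0 passed the test in either direction. Sema6b, a membrane ligand of class A plexins, read 6.26 and 5.72 in the Crebbp+/- samples and 6.32 and 5.77 in the wild-type samples, a difference of -0.05 (SE 0.37). Sema4c, a ligand of plexin B2, differed by 0.14 (SE 0.34). Sema4f and Sema4g had Crebbp+/- means of 2.71 and 2.57, below background, and differed by -0.75 (SE 0.47) and -0.40 (SE 0.30). For Sema4f the difference was -1.43 in the samples numbered 1 and -0.08 in those numbered 2, and for Sema4g it was -0.02 and -0.78, so each rests on 1 wild-type sample. For Sema4f it rests mainly on 1 array, since arrays 1 and 2 of wild-type sample 1 read 5.27 and 3.01. Of 5 other plexins, Plxna2 and Plxna3 passed the filter and differed by 0.09 (SE 0.18) and -0.07 (SE 0.26).

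Co-receptors and VEGF ligands gave the same count. Of 13 co-receptors and alternative receptors 6 passed the filter, 5 of them higher in Crebbp+/- and 0 past the test, with a median of 0.26. Itgb1, the integrin chain that pairs in the Sema7a receptor, differed by 0.17 (SE 0.29), and Gipc1, an adaptor of the Nrp1 tail, by -0.04 (SE 0.45). Flt1, a VEGF receptor, and Cd72, the Sema4d receptor of B cells, differed by 0.70 (SE 0.39) and 0.49 (SE 0.24), with wild-type means of 2.61 and 2.81 near background. The Flt1 difference was 1.03 in the samples numbered 1 and 0.37 in those numbered 2, and that of Cd72 was 0.27 and 0.70. Of the VEGF ligands 3 passed the filter, with 0 calls and a median of 0.02. Vegfc, a ligand of Nrp2, read 4.97 and 5.99 in the Crebbp+/- samples against 5.89 and 6.74 in the wild-type samples, a difference of -0.83 (SE 0.51), and Vegfb differed by 0.20 (SE 0.30).

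Among 6 proteases that process semaphorins, 4 passed the filter, with 0 calls and a median of -0.06. Adam10 and Adam17, which shed membrane proteins, differed by -0.06 (SE 0.11) and 0.28 (SE 0.42), and Pcsk5, a proprotein convertase, by -0.56 (SE 0.40). The Pcsk5 difference comes from 1 wild-type array of sample 2 at 4.72, with all other arrays below background, and was -0.02 in the samples numbered 1 and -1.11 in those numbered 2. Of 34 cytoplasmic effectors on the array 27 passed the filter, 17 higher and 10 lower in Crebbp+/-, with 0 calls and a median of 0.07. Rras2, a small GTPase of the R-Ras group on which plexins act, read 9.00 and 8.86 in Crebbp+/- sample 1 and 8.44 and 8.31 in sample 2, against 7.84 and 7.99 in wild-type sample 1 and 7.36 and 7.74 in sample 2. Its arrays did not overlap between genotypes, as for 1 of the 46 listed genes tested, beside 6.98% of all probe sets. Its difference of 0.92 (SE 0.30) did not pass the limma test (unadjusted p = 0.031, adjusted p = 0.991). It was the only one of the 46 listed genes tested with an unadjusted p under 0.05, beside 4.84% of all probe sets. Rnd2 differed by -0.66 (SE 0.43). Cfl1, which encodes an actin-severing protein, and the GTPase gene Rap1b differed by -0.05 (SE 0.10) and 0.06 (SE 0.12).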

How the data were processed

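The deposited values of the 8 arrays are log2 signals that the authors made with GCRMA, per the submitters' processing notes, which name no version. Scanner files were not used, and the number of arrays limits precision. Of 45101 probe sets, 64 controls were left out.

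Gene symbols were those of the platform annotation. Identifiers of all 10 members matched the GRCm38.p6 gene table, from which names and gene order were taken, and promoters are from RefSeq on the same build. After averaging the 2 arrays of each sample, limma 3.58.1 (R 4.3.3; lmFit and a trended eBayes; 2 residual and 4.75 total degrees of freedom) was run on the 22518 probe sets with a mean over 2.72, with Benjamini-Hochberg adjustment over all of them. The code of the fit was checked on simulated data, where recovery was required only at a spread far below the measured one. That check does not show how many differences the fit would find at n = 2 with the measured spread. A gene of a list is represented by its probe set of highest mean.

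The members and lists were chosen with earlier results of these data known. Every member was named, and each array was given where a probe set lay 1 log2 unit above background in both genotypes or differed by 1. From each list came the 2 genes with the largest difference and the 2 with the highest mean, besides 6 genes most like Sema3d and 5 neighbours on each side. The alternatives changed the replicate unit, blocking by sample number, the filter, the normalization, the floor and the variance model, or left out a sample or an array.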

Additional observations from a re-analysis of the deposited data

Results flagged for a closer look

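Among the 28 sets of 4 arrays examined (14 probe sets in 2 genotypes), 6 held an array far from the other 3, where chance gives about 1 in 20 for independent arrays, and arrays of a sample are not independent. For Sema4a probe set 1438934_x_at, array 2 of sample 2 stood apart in both genotypes, at 3.43 in Crebbp+/- with the others at 2.73 to 2.84, and at 4.31 in wild type with the others at 2.76 to 2.85. Nrp1 probe set 1418084_at had the same 2 arrays apart, at 3.35 in Crebbp+/- with the others at 2.75 to 2.78, and at 4.53 in wild type with the others at 2.77 to 2.98. For Plxnb2, array 1 of Crebbp+/- sample 2 read 3.75, with the others at 3.16 to 3.21. For Plxnd1, array 1 of wild-type sample 2 read 6.70, with the others at 5.79 to 5.86.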

How the results depend on the processing

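The Sema3d difference between genotypes was positive under the 14 alternatives that can change its value, from 1.97 without wild-type sample 2 to 3.14 without wild-type sample 1. Those of Sema4b (-0.22 to -0.12) and Plxnd1 (-1.43 to -0.19) stayed negative, and those of the other 11 member probe sets changed sign in 1 to 3 of 21 alternatives. A replicate block by sample number gave 0 probe sets past the test between genotypes (limma lowest adjusted p = 0.114), and 8 arrays taken as independent gave 1. Between sample numbers the count was 0, against 3057 with independent arrays, 1762 with the sample as a random block and 2209 with genotype as a covariate. Plxnc1 1423213_at passed under these 3 settings and Sema4d under 2 of them. Same-numbered samples deviated alike (correlation 0.55), which with 2 pairs does not establish pairing. The count of member probe sets whose samples did not overlap between genotypes was 2, and ranged from 2 to 13 when a sample or array was left out, since 1 sample against 2 separates more easily. Sample number differences, none past the test, changed sign for 4 probe sets when a sample or array was left out. The ranges were -2.36 to 0.39 for Sema3d, -0.066 to 0.127 for Sema4b, -0.014 to 0.553 for Plxna1 and -0.16 to 0.508 for Plxnc1 1450906_at. A filter at the upper 25% of probe sets kept 4 member probe sets for this contrast. The cause was not tested.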
